A study of Mus musculus with 9 samples.

Results

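The genes described here are 10 members of the NF-kB system, taken by their symbols from a liver RNA-seq table of 54532 genes. They are the DNA-binding subunits Nfkb1, Nfkb2, Rel, Rela and Relb, the cytoplasmic inhibitors Nfkbia and Nfkbie, the nuclear IkB proteins Nfkbiz and Bcl3, and the ubiquitin-editing inhibitor Tnfaip3. All 10 were found, and each was at 0.5 FPKM or more in all 9 libraries, so none of them entered the tests through 1 group alone. FPKM is a read count divided by gene length and by library size. The libraries are poly(A) RNA of livers from male C57BL/6J mice of WT genotype, in 3 groups of 3. The chow group ate normal chow and received vehicle control. The vehicle group ate CDAA-HFD, a choline-deficient, amino acid-defined, high-fat diet that produces steatohepatitis in mice, and also received vehicle control. The 326E group ate CDAA-HFD and received the compound 326E, an enedioic acid analogue by the series title, at 30 mg/kg for 6 weeks. That title names ACLY and PPARα as its targets, and the design asks which liver changes go with treatment by 326E. Library titles begin with MCD, the usual abbreviation of another diet, but the protocol names CDAA-HFD and chow and was followed. The labels do not say that each library came from a separate animal, so p-values measure the spread between these samples, which may in part be technical.

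NF-kB is a family of dimeric transcription factors. In resting cells IkB proteins such as the product of Nfkbia hold Rela- and Rel-containing dimers in the cytoplasm. Signals from TNF, IL-1 and Toll-like receptors activate the IKK kinases, the IkB proteins are degraded, and the dimers enter the nucleus (the canonical route). A slower, non-canonical route runs through the kinase NIK and processes the Nfkb2 product p100 to p52, which pairs with Relb. Several genes of the system, among them Nfkbia, Tnfaip3, Nfkb2, Rel and Relb, are themselves textbook targets of NF-kB, so their messenger RNA follows its activity in many cell types. In the liver the system acts in hepatocytes, in Kupffer cells and in incoming leukocytes.

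Promoter sequences are shown because many of these genes moved together and are known for their NF-kB sites. RefSeq promoters (GRCm38.p6, the assembly that mm10 also names) from 250 bases before to 50 bases after the start were matched for 7 members, namely Nfkb2, Rel, Rela, Nfkbia, Nfkbie, Bcl3 and Tnfaip3. The 10-base NF-kB consensus site, searched by that name on both strands, was present in at least 1 promoter of 5 of these 7 genes, against 1769 of 27025 genes (6.55%) and 1907 of 32851 promoters (5.8%) of the whole table. The share is a description, since the members were not drawn at random. The stretches printed are the 120 bases before the start of Nfkbia (chr12:55492648-55492767, minus strand), of Rel (chr11:23770970-23771089, minus strand) and of the second Tnfaip3 promoter (chr10:19015411-19015530, minus strand), each 5′ to 3′ with the matches in capitals.
Nfkbia: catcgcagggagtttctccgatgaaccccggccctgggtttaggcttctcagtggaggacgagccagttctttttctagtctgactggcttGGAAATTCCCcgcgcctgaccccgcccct
Rel: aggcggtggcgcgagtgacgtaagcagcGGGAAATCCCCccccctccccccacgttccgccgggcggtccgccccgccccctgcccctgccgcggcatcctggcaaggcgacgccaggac
Tnfaip3: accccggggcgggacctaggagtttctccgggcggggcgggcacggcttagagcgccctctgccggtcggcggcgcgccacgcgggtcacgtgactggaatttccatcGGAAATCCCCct
The match began 29 bases before the start in Nfkbia and 12 bases before it in Tnfaip3. In Rel, 2 overlapping matches began 92 and 91 bases before the start. The Tnfaip3 stretch lies inside the span of the gene as deposited but outside its exons in GENCODE vM21. The first Nfkb2 promoter held GGGAATTCCC at 39 and GGGGCTTTCC at 11 bases before its start. Bcl3 held GGGAAGTCCC just after its start. In Rela and Nfkbie these letters were not found in the window. A match is a run of letters, not a bound site, and binding was not measured.

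Assigned reads numbered 13275888 in the shallowest and 17058316 in the deepest library. Each member's value in a library rested on 30 to 2618 of them, and the fewest reads lay behind Relb and Nfkbie (30 each in their lowest library) and Tnfaip3 (43). As a check of the liver label, 6 hepatocyte markers summed to 37200 to 44100 FPKM in chow, 24300 to 38400 in the vehicle group and 22600 to 31900 in the 326E group. Of these 6, 4 were called lower in each CDAA-HFD group than in chow (medians -0.77 and -0.75). Of all tested genes, 20.8% were called lower in vehicle against chow, and the share for 326E against chow is not given here. Scaling to total assigned reads gave 2 lower in the vehicle group and 3 in the 326E group (medians -0.38 and -0.39). Quantile normalization gave 2 and 1 (medians -0.16 and -0.22), so the number of these calls and the size of the median fall depend on the scaling. The part of hepatocyte RNA in the members' values was not tested. One feature of the vehicle group touches the results below. Vehicle replicate 2 was lower than replicates 1 and 3 for all 18 tested immediate early genes (genes such as Fos and Egr1 that switch on within minutes of a stimulus), against 33.5% of all tested genes for which it was the lowest vehicle library. The median of these genes stood 3.05, 1.23 and 3.32 above the chow mean on the log2(FPKM+1) scale in vehicle replicates 1, 2 and 3, and 0.94, 0.63 and 0.43 above it in 326E replicates 1, 2 and 3. That list was written after values of these libraries had been seen. Where a member's result rests on vehicle replicates 1 and 3, it is given with replicate 2 alone as well. This was not done for single genes of the pathway and immediate early lists.

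In livers on CDAA-HFD with vehicle, 9 of the 10 members were higher than in chow livers. The exception was Rela. The rises were largest in the inhibitors Tnfaip3 (22.3-fold in mean FPKM) and Nfkbiz (10.2-fold) and in the subunit Rel (7.61-fold). On the log2(FPKM+1) scale these genes also led, at 3.07, 2.52 and 1.93, above Nfkb2 (1.69), Relb (1.66) and Nfkbie (1.42). On that scale the order rests on vehicle replicates 1 and 3. The scale understates the change of low genes, so fold changes with replicate 2 need not follow the same order. With vehicle replicate 2 alone the differences of log2(FPKM+1) were 1.81 for Tnfaip3, 1.15 for Nfkbiz and 1.13 for Rel, the latter pair below Nfkb2 (1.43), Relb (1.43) and Nfkbie (1.38). In mean FPKM the rises were smallest in Nfkbia (1.71-fold), Nfkb1 (1.83-fold) and Bcl3 (2.16-fold). No member fell by limma, also at an unadjusted p under 0.05, and limma-voom likewise called 9 higher and 0 lower. Over all 13737 genes tested, 20.8% were called higher and 20.8% lower in this comparison. For 8 members all vehicle libraries lay above all chow libraries, which held for 24.9% of the genes tested. The median difference of the members was 1.54 on the log2(FPKM+1) scale, against -0.037 for all genes tested. Scaling to total assigned reads moved the median of all tested genes to 0.25 and that of the members to 1.78, and it moved the medians of 326E against chow to 0.235 and 1.02 (-0.024 and 0.8 as deposited). These are bulk livers, so more cells of a type and more RNA per cell cannot be told apart. Summed FPKM of 8 macrophage markers was 110 to 122 in chow and 883, 1400 and 1370 in vehicle replicates 1, 2 and 3, all 8 called higher. Lyz2 alone held 639, 1080 and 1040 FPKM of these vehicle sums. The sum of 6 neutrophil markers was 3.95 to 22.9 in chow and 32.7 to 57.3 in the vehicle group, with 1 marker at 0 in all libraries of each of these groups. The part of these cells in the members' rise was not tested.

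**Figure D1:**
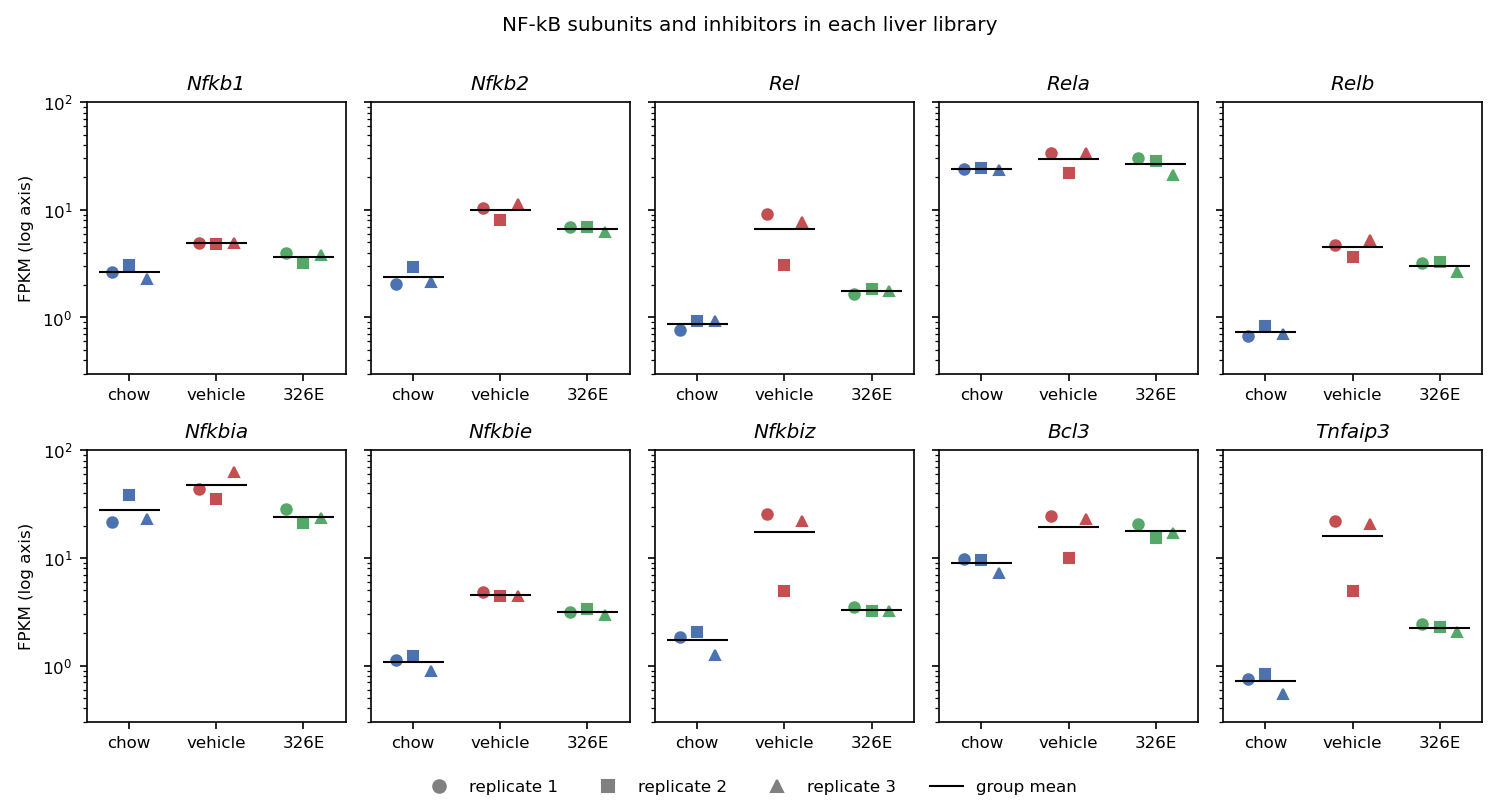
FPKM (log axis) of each member in the 9 libraries, by group, with the replicate number as the symbol and the group mean as a line. In the vehicle group Tnfaip3 and Nfkbiz are far lower in replicate 2 (4.98 and 4.96) than in replicates 1 and 3, whereas the Nfkb1 values of 4.86 to 4.91 lie on top of each other.

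Among the subunits, Nfkb1 (ENSMUSG00000028163, chr3:135584655-135691547, minus strand, mm10 as are all positions here) encodes p105, the precursor of p50. It measured 2.65, 3.08 and 2.29 FPKM in chow replicates 1, 2 and 3, and 4.91, 4.86 and 4.91 in the vehicle group. The vehicle libraries were almost identical and all above chow. The difference was 0.69 ± 0.1 on the log2(FPKM+1) scale (± SE, limma adjusted p = 0.000874). Rela (ENSMUSG00000024927, chr19:5637483-5648130, plus strand), the main activating subunit p65, measured 23.8, 24.5 and 23.3 FPKM in chow and 33.6, 22.2 and 33.7 in the vehicle group. Its vehicle replicate 2 was below every chow library, so the groups overlapped. The Rela difference of 0.29 ± 0.18 did not pass (limma adjusted p = 0.241). It passed on scaling to total reads (0.67, adjusted p = 0.0181) and without vehicle replicate 2 (0.48, adjusted p = 0.0392), and it was -0.1 with replicate 2 alone (adjusted p = 0.756, the upper end of the range over all alternatives, which begins at 0.0181).

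Rel (ENSMUSG00000020275, chr11:23736847-23770970, minus strand) encodes c-Rel, a subunit best known from lymphoid and myeloid cells. Its levels were 0.758, 0.931 and 0.927 FPKM in chow and 9.15, 3.1 and 7.64 in the vehicle group. All vehicle libraries were above chow, but replicates 1 and 3 were 2.95 and 2.46 times replicate 2. The Rel difference was 1.93 ± 0.28 on the log2 scale (limma adjusted p = 0.000698).

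Both genes of the non-canonical route rose. Nfkb2 (ENSMUSG00000025225, chr19:46304737-46312090, plus strand) encodes p100, the precursor of p52 and itself able to hold Relb in the cytoplasm. It measured 2.05, 2.93 and 2.13 FPKM in chow and 10.4, 8.03 and 11.3 in the vehicle group, a difference of 1.69 ± 0.14 (limma adjusted p = 3.52e-05). Relb (ENSMUSG00000002983, chr7:19606217-19629438, minus strand), the partner of p52, measured 0.678, 0.835 and 0.703 FPKM in chow and 4.72, 3.67 and 5.2 in the vehicle group. Its difference was 1.66 ± 0.12 (limma adjusted p = 1.96e-05). For both genes the groups were far apart and the vehicle libraries lay within 1.42-fold of replicate 2.

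Of the cytoplasmic inhibitors, Nfkbie (IkB-epsilon, ENSMUSG00000023947, chr17:45555703-45563169, plus strand) was the steadier. It measured 1.14, 1.22 and 0.897 FPKM in chow and 4.84, 4.43 and 4.42 in the vehicle group, a difference of 1.42 ± 0.09 (limma adjusted p = 1.18e-05). Nfkbia (IkB-alpha, ENSMUSG00000021025, chr12:55489410-55492647, minus strand), the classical feedback inhibitor, measured 21.5, 38.4 and 23.2 FPKM in chow and 43.5, 35.3 and 63.0 in the vehicle group. Chow replicate 2 exceeded vehicle replicate 2, so the groups overlapped. The Nfkbia difference of 0.76 ± 0.26 passed narrowly (limma adjusted p = 0.0407), and the call was kept in 11 of 21 alternatives (adjusted p 0.00436 to 0.426).

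The nuclear IkB proteins do not retain NF-kB but act on it at promoters, and both were uneven within the vehicle group. Nfkbiz (IkB-zeta, ENSMUSG00000035356, chr16:55811375-55838899, minus strand) is needed for a delayed set of inflammatory genes. It measured 1.84, 2.06 and 1.25 FPKM in chow and 25.7, 4.96 and 22.1 in the vehicle group, a difference of 2.52 ± 0.47 (limma adjusted p = 0.00273). Bcl3 (ENSMUSG00000053175, chr7:19808462-19822770, minus strand), which works with p50 and p52 homodimers, measured 9.86, 9.57 and 7.24 FPKM in chow and 24.3, 10.1 and 23.2 in the vehicle group. Vehicle replicate 2 was only just above the highest chow library. The Bcl3 difference was 0.95 ± 0.29 (limma adjusted p = 0.0275), and with vehicle replicate 2 alone it was 0.18 (adjusted p = 0.593, against 0.000507 at the lowest over the alternatives).

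Tnfaip3 (ENSMUSG00000019850, chr10:19000910-19015657, minus strand) encodes A20, which removes and edits the ubiquitin chains that carry TNF and Toll-like receptor signals. It measured 0.751, 0.844 and 0.542 FPKM in chow and 22.1, 4.98 and 20.5 in the vehicle group. Even replicate 2 was several times every chow library. The difference was 3.07 ± 0.43 (limma adjusted p = 0.000583), the largest of the 10 members.

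With vehicle replicate 2 as the sole vehicle library, 7 members were called higher than chow, namely Nfkb1, Nfkb2, Rel, Relb, Nfkbie, Nfkbiz and Tnfaip3. These 7 passed in all 21 alternatives run for this comparison. Nfkbia, Bcl3 and Rela did not pass with replicate 2 alone.

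**Figure D2:**
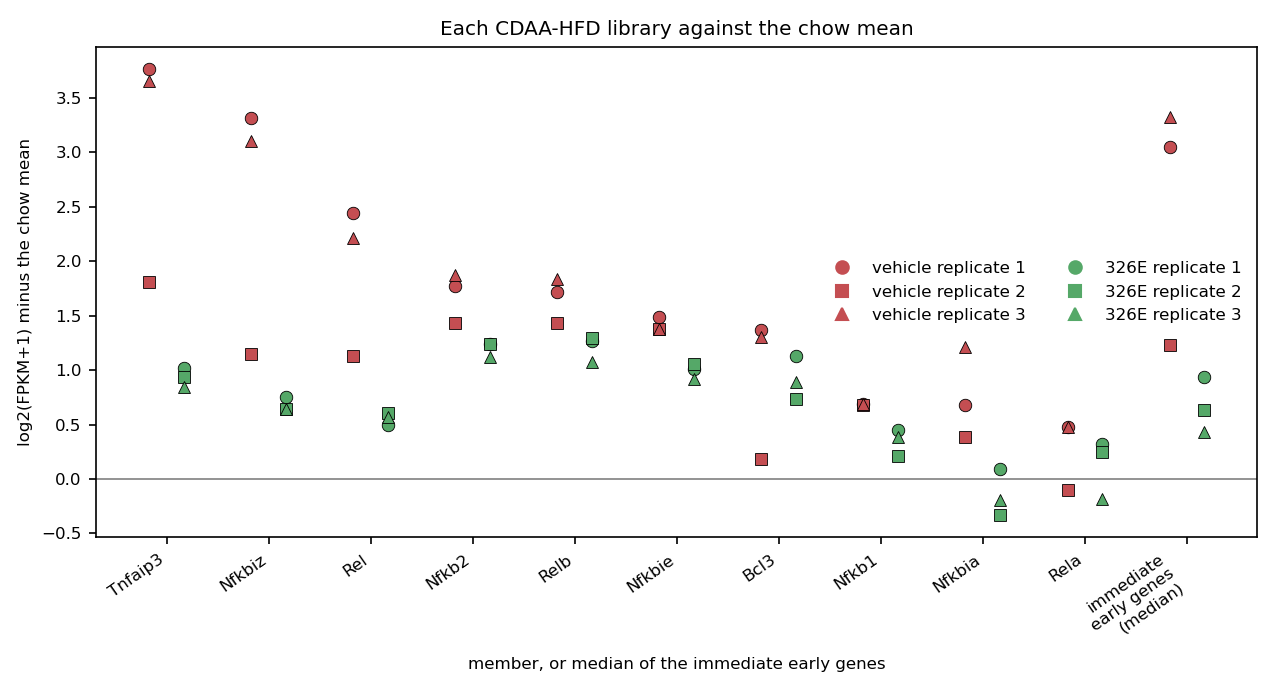
Difference of each CDAA-HFD library from the chow mean in log2(FPKM+1), for each member and for the median of the tested immediate early genes. Vehicle replicate 2 (square) stands below vehicle replicates 1 and 3 for Tnfaip3, Nfkbiz, Rel, Bcl3 and the immediate early median, and beside them for Nfkb1 and Nfkbie.

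The members split by how even the vehicle libraries were. The SD of log2(FPKM+1) in the vehicle group was 1.192 for Nfkbiz, 1.098 for Tnfaip3, 0.697 for Rel and 0.669 for Bcl3, where the median of all tested genes was 0.153. These SDs exceeded those of 99.4%, 99.3%, 97.4% and 97.1% of tested genes. Nfkb1 was at the other end, with an SD of 0.008, larger than that of 0.437% of tested genes, and Nfkbie had an SD of 0.061 (12.7%). Nfkb2 (0.231) and Relb (0.21) lay between, with Rela (0.336) and Nfkbia (0.414) above them. Nfkbiz was 5.18 and 4.45 times as high in vehicle replicates 1 and 3 as in replicate 2, and Tnfaip3 4.45 and 4.12 times. Vehicle replicate 2 was the lowest vehicle library for 9 of the 10 members, all but Nfkbie. The macrophage marker sum was lowest in vehicle replicate 1 (883) and highest in replicate 2 (1400). Most of it was Lyz2, at 639, 1080 and 1040 FPKM in vehicle replicates 1, 2 and 3. In the same libraries Csf1r measured 40.3, 42.3 and 40.4 FPKM and Adgre1 30.7, 32.6 and 27.3. The immediate early genes, like these 9 members, were lowest in replicate 2. The part of macrophages and of the immediate early genes in the members' values was not tested.

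Against vehicle, the 326E livers had lower levels of 5 members, Tnfaip3, Nfkbiz, Rel, Relb and Nfkbie. Mean FPKM was 7.03-fold lower for Tnfaip3, 5.3-fold lower for Nfkbiz and 3.77-fold lower for Rel, and 1.49-fold and 1.45-fold lower for Relb and Nfkbie. No member was called higher by limma or by limma-voom, also at an unadjusted p under 0.05. Of all genes tested, 6.5% were called lower. With so few members, the absence of higher calls is a description and no result about them. For 8 members, all but Rela and Bcl3, every 326E library was below every vehicle library, as it was for 18.2% of tested genes. The members' median difference was -0.47, against -0.019 for all tested genes. The calls depend on single libraries. None of the members passed in limma fits without vehicle replicate 3, 326E replicate 2 or 326E replicate 3, although 8 were at an unadjusted p under 0.05 in each of these fits. Without 326E replicate 1, Tnfaip3 was the sole call, and without vehicle replicate 1 Tnfaip3 and Rel were called. Without chow replicate 1 or chow replicate 3, which enter only through the shared spread, 3 passed (Tnfaip3, Rel and Nfkbie). limma-voom on whole reads called 8 lower, and the fit with vehicle replicate 2 as the sole vehicle library called 1, Tnfaip3.

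**Figure D3:**
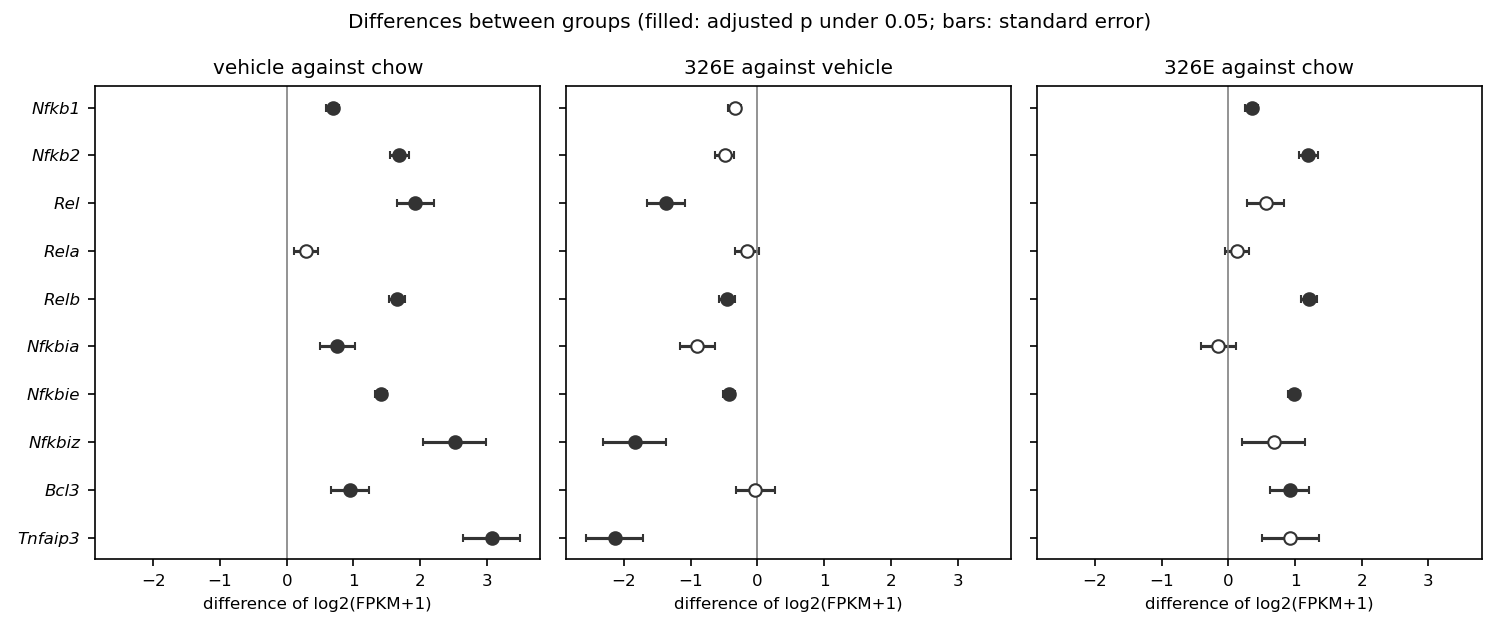
Difference between groups in log2(FPKM+1) for each member, with the standard error as a bar and filled points where the limma adjusted p is under 0.05. In the middle panel (326E against vehicle) Tnfaip3 and Nfkbiz lie farthest to the left with wide bars, at -2.14 and -1.84, while Relb and Nfkbie pass with small differences and narrow bars.

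Tnfaip3 measured 2.45, 2.27 and 2.05 FPKM in 326E replicates 1, 2 and 3. These were tightly grouped and below the lowest vehicle library (4.98). The difference from vehicle was -2.14 ± 0.43 (limma adjusted p = 0.0168), with a range of -2.78 to -0.88 over the alternatives (adjusted p 1.35e-05 to 0.0562). It was called in 18 of 21 of them, and -0.88 is the value with vehicle replicate 2 alone (adjusted p = 0.0427).
Rel measured 1.64, 1.85 and 1.78 FPKM in the 326E group, against 3.1 in the lowest vehicle library. Its difference was -1.37 ± 0.28 (limma adjusted p = 0.0174), and with vehicle replicate 2 alone it was -0.57 (adjusted p = 0.0728). The Rel call was kept in 16 of 21 alternatives. Nfkbiz measured 3.53, 3.21 and 3.2 FPKM, below the 4.96 of vehicle replicate 2. Its difference was -1.84 ± 0.47 (limma adjusted p = 0.0381), and with vehicle replicate 2 alone -0.47 (adjusted p = 0.234), and it was called in 10 of 21 alternatives. For both genes the difference was smaller against vehicle replicate 2 alone than against all vehicle libraries.

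Relb and Nfkbie showed smaller differences. Relb measured 3.19, 3.26 and 2.65 FPKM in the 326E group, under all vehicle libraries, a difference of -0.45 ± 0.12 (limma adjusted p = 0.0454, called in 7 of 21 alternatives). With vehicle replicate 2 alone the Relb difference was -0.22 (adjusted p = 0.482). Nfkbie measured 3.18, 3.33 and 2.95 FPKM, also under all vehicle libraries, a difference of -0.42 ± 0.09 (limma adjusted p = 0.0208, called in 15 of 21). With vehicle replicate 2 alone the Nfkbie difference was -0.39, close to the value over all vehicle libraries, with an adjusted p of 0.196.

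Another 3 genes missed the threshold. Nfkb1 measured 4.0, 3.22 and 3.8 FPKM in the 326E group (-0.34 ± 0.1, limma adjusted p = 0.0683). Nfkb2 measured 6.92, 6.9 and 6.28 FPKM (-0.49 ± 0.14, limma adjusted p = 0.0535), and its difference was -0.23 with vehicle replicate 2 alone. Nfkbia measured 28.5, 21.0 and 23.3 FPKM (-0.9 ± 0.26, limma adjusted p = 0.0536). All 3 genes were lower in every 326E library than in any vehicle library. Rela and Bcl3 differed least from vehicle. Rela measured 30.1, 28.5 and 21.0 FPKM (-0.15 ± 0.18, limma adjusted p = 0.626). Bcl3 measured 20.6, 15.3 and 17.2 FPKM (-0.03 ± 0.29, limma adjusted p = 0.959). Every Bcl3 value of the 326E group was above vehicle replicate 2 (10.1) and below the other two vehicle libraries, so its sign turned with the libraries kept, from -0.41 to 0.74 over the alternatives. The macrophage marker sum was 851, 472 and 476 FPKM in 326E replicates 1, 2 and 3, with 6 of 8 markers called lower than vehicle, and the neutrophil sum was 30.7, 17.6 and 23.5. Their part in the members' lower levels was not tested.

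Set against chow, 5 members were higher in the 326E livers, namely Nfkb2, Relb, Nfkbie, Nfkb1 and Bcl3, and none was lower by limma or limma-voom, also at an unadjusted p under 0.05. Over all tested genes 14.4% were called higher. With so few members, the absence of lower calls is a description and no result about them. This comparison shares its libraries with the other comparisons, so the values stand side by side and are not independent. Relb (1.21 ± 0.12, limma adjusted p = 0.000245), Nfkb2 (1.2 ± 0.14, limma adjusted p = 0.000534) and Nfkbie (0.99 ± 0.09, limma adjusted p = 0.000168) passed in all 20 alternatives. Bcl3 (0.92 ± 0.29, limma adjusted p = 0.0443) passed in 12 of 20 and Nfkb1 (0.35 ± 0.1, limma adjusted p = 0.036) in 11 of 20. Tnfaip3 (0.93 ± 0.43, limma adjusted p = 0.145), Nfkbiz (0.68 ± 0.47, limma adjusted p = 0.321) and Rel (0.56 ± 0.28, limma adjusted p = 0.173) did not pass. All their 326E libraries were above all chow libraries, but the share of tested genes so separated was not computed for this comparison. In the main fit the vehicle libraries enter this comparison only through the shared spread. Their SDs of log2(FPKM+1) were 1.098 for Tnfaip3, 1.192 for Nfkbiz and 0.697 for Rel. In chow the SDs were 0.133, 0.231 and 0.077, and in the 326E group 0.09, 0.062 and 0.058. The missed threshold therefore does not show a return to chow levels. Tnfaip3, Nfkbiz and Rel passed when vehicle replicate 2 was left out, which gave 8 calls. Without chow replicate 1, chow replicate 3, 326E replicate 1 or 326E replicate 3 there were 3 calls, Nfkb2, Nfkbie and Relb. Nfkbia was -0.15 ± 0.26 from chow (limma adjusted p = 0.717). Its sign turned on scaling to total reads (0.21) and without chow replicate 2 (0.11), and quantile normalization gave 0.0.

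The order of levels by FPKM, which is per deposited gene length, also differed between groups. Those lengths (for example 12061 bases for Nfkb1 and 3289 for Nfkb2) may not be those of the transcripts expressed. The order within a group is uncertain to that extent. In chow, Nfkbia (27.7 ± 9.3 FPKM, SD, n = 3) and Rela (23.9 ± 0.638) led and overlapped, followed by Bcl3 (8.89 ± 1.43), Nfkb1 (2.68 ± 0.393) and Nfkb2 (2.37 ± 0.489). Nfkbiz (1.72 ± 0.418) did not separate from Nfkb2, and the lowest 4, Nfkbie, Rel, Relb and Tnfaip3 (0.712 ± 0.155), each overlapped with the next. In the vehicle group Nfkbia (47.3 ± 14.2) stood above Rela (29.8 ± 6.64), and Tnfaip3, last in chow, had moved up to 15.9 ± 9.47 behind Bcl3 (19.2 ± 7.91) and Nfkbiz (17.6 ± 11.1). From Rela down to Nfkb1 (Rela, Bcl3, Nfkbiz, Tnfaip3, Nfkb2, Rel, Nfkb1) every neighbour overlapped, as did Nfkbie and Relb at the bottom. In the 326E group Rela (26.6 ± 4.9) and Nfkbia (24.3 ± 3.83) overlapped at the top. Bcl3 (17.7 ± 2.64) and Nfkb2 (6.7 ± 0.365) followed, each apart from its neighbours. Nfkb1 (3.67 ± 0.403), Nfkbiz (3.31 ± 0.188), Nfkbie (3.15 ± 0.19) and Relb (3.03 ± 0.336) overlapped in turn. Tnfaip3 (2.26 ± 0.201) and Rel (1.76 ± 0.11) were last and apart.

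Ratios within a library cancel the scaling between libraries. The Nfkb2 to Nfkb1 ratio of FPKM was 0.772, 0.953 and 0.929 in chow, 2.12, 1.65 and 2.3 in the vehicle group, and 1.73, 2.14 and 1.65 in the 326E group. By FPKM, Nfkb1 was thus above Nfkb2 in every chow library and below it in every CDAA-HFD library, with the vehicle and 326E groups overlapping. Which gene stood higher depends on the deposited gene lengths, whereas the difference in this ratio between groups does not. The Relb to Rela ratio was 0.0285 to 0.034 in chow, 0.141, 0.166 and 0.154 in the vehicle group, and 0.106, 0.114 and 0.126 in the 326E group, with no overlap between any of the groups. Vehicle replicate 2 had the highest Relb to Rela ratio of its group, unlike its low levels of both genes. The Nfkbia to Rela ratio was 0.902, 1.56 and 0.997 in chow, 1.3, 1.59 and 1.87 in the vehicle group, and 0.946, 0.737 and 1.11 in the 326E group. Chow overlapped with both other groups, while the vehicle and 326E groups did not overlap. The Tnfaip3 to Rela ratio was 0.0233 to 0.0344 in chow, 0.66, 0.225 and 0.607 in the vehicle group, and 0.0797 to 0.0978 in the 326E group.

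Across the 9 libraries, which fall into 3 groups and share the group differences, the genes whose log2(FPKM+1) pattern was most like each member's are given as Pearson r, as a description. For Nfkb2 they were Relb (0.995), Gm11843 (0.991) and Csf1 (0.99), the growth factor of macrophages. For Relb they were Gadd45b (0.996), Nfkb2 (0.995) and Csf1 (0.994). For Tnfaip3 the genes were Egr2, H3f3b and Thbs1 (each r = 0.996), and for Rel they were Tnfaip3 (0.995), Hilpda and Egr2 (both 0.993). For Nfkbiz they were Btg2 (0.996), Elmsan1 (0.994) and Thbs1 (0.993). Nfkbie was most like Coro1a (0.998), Plek and Sirpa (both 0.994), genes known from leukocytes. Nfkb1 was most like B430306N03Rik (0.99), Procr (0.987) and Vav1 (0.986). The remaining members had looser neighbours. They were Esam (0.957), Lonp1 (0.938) and Gpx4-ps2 (0.926) for Bcl3, H2-T22 (0.949), Rpl12 and Gm26109 (both 0.943) for Nfkbia, and Gm37963 (0.944), Sf3b4 (0.921) and Sowahb (0.897) for Rela. Gm11843 and Gpx4-ps2 are pseudogenes and Gm26109 a small nucleolar RNA gene, whose reads may belong to other genes. With group means removed, the r of Nfkbiz with Tnfaip3 was 1.0, of Rel with Tnfaip3 0.97 and of Nfkbiz with Bcl3 0.96, whereas that of Nfkb1 with Rel was -0.01. For Nfkbiz, Tnfaip3, Rel and Bcl3 most of the spread within groups lay in the vehicle group. The high r values among them therefore rest largely on vehicle replicate 2 against replicates 1 and 3.

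The pathway around the members was read from lists by role, by the same limma fit and as counts only. Beside these counts, 20.8% of all tested genes were called higher and 20.8% lower in vehicle against chow, and 6.5% lower in 326E against vehicle. Of 11 receptors tested, 6 rose and 1 fell in vehicle against chow (median 1.01), and 5 fell and 0 rose in 326E against vehicle (median -0.5, with 0 higher also at an unadjusted p under 0.05 and by limma-voom). Cd14, the co-receptor that hands lipopolysaccharide to TLR4, measured 1.72, 4.66 and 2.89 FPKM in chow, 42.0, 31.7 and 63.7 in the vehicle group and 23.1, 12.3 and 15.6 in the 326E group. Its differences were 3.52 ± 0.33 (limma adjusted p = 6.85e-05) and -1.36 ± 0.33 (limma adjusted p = 0.0315). Tnfrsf12a, the receptor of TWEAK, followed the uneven pattern, at 29.7, 7.77 and 21.5 FPKM in the vehicle group after 2.56 to 3.17 in chow (2.24 ± 0.39, limma adjusted p = 0.00191). Tnfrsf1b, the second TNF receptor, rose more evenly to 38.4, 35.7 and 44.2 FPKM and was 25.0, 18.0 and 17.5 in the 326E group (-0.94 ± 0.17, limma adjusted p = 0.0106). Il1rap, the shared chain of IL-1 family receptors, fell from 15.4 to 18.5 FPKM in chow to 8.06 to 10.3 in the vehicle group (-0.87 ± 0.15, limma adjusted p = 0.00143).

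Of 31 adaptors and kinases tested, 12 rose and 4 fell in vehicle against chow (median 0.16), and 4 fell and 0 rose in 326E against vehicle (median -0.17, with 0 higher also at an unadjusted p under 0.05 and by limma-voom). Map3k14, which encodes NIK of the non-canonical route, was 0.5 to 0.66 FPKM in chow and 2.7, 1.25 and 1.93 in the vehicle group (0.88 ± 0.16, limma adjusted p = 0.00264). In the 326E group it was 0.871 to 1.09 FPKM, a difference of -0.54 ± 0.16 that did not pass (limma adjusted p = 0.0664). Bcl10, which links antigen and lectin receptors to IKK, was 3.36 to 4.67 FPKM in chow and 11.6, 6.08 and 8.88 in the vehicle group (0.99 ± 0.2, limma adjusted p = 0.00388). Irak3, a brake on Toll-like receptor signals, fell in the 326E group from 2.16 to 2.53 FPKM to 0.784 to 1.04 (-0.77 ± 0.19, limma adjusted p = 0.0333). Ikbke, an IKK-related kinase, fell from 2.83 to 3.83 FPKM to 1.65 to 2.06 (-0.56 ± 0.11, limma adjusted p = 0.0171). Ikbkg, the regulatory subunit NEMO of the IKK complex, and Tab2, a subunit of the TAK1 complex, fell in vehicle against chow, by 0.52 and 0.56 on the log2 scale (limma adjusted p = 0.00543 and 0.0077). Neither passed when values were scaled to total reads (-0.16 and -0.18). That scaling gave 21 higher and 0 lower in this list for the diet (median 0.46). It also moved the median of all tested genes to 0.25. The share of all tested genes called under it is not given here, so these counts are no result about the list.

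Among 19 tested ubiquitin enzymes and other inhibitors, 4 rose and 3 fell in vehicle against chow (median 0.01), so the share that rose was close to that of all tested genes. None passed in 326E against vehicle by limma or by limma-voom, where 1 higher and 3 lower were at an unadjusted p under 0.05 by each. Tnip1, a partner of A20, rose from 1.95 to 2.46 FPKM in chow to 5.51, 8.54 and 8.51 in the vehicle group (1.4 ± 0.22, limma adjusted p = 0.000972). It measured 8.91, 6.21 and 4.61 FPKM in the 326E group, overlapping with vehicle, unlike Tnfaip3. Zc3h12a, a ribonuclease that degrades inflammatory transcripts, rose to 5.01, 2.87 and 5.44 FPKM from 1.08 to 2.04 (1.13 ± 0.23, limma adjusted p = 0.00434). Otulin, which removes linear ubiquitin chains, fell from 27.5 to 29.2 FPKM to 17.1 to 18.8 (-0.64 ± 0.1, limma adjusted p = 0.000795), and Nkiras1, which slows the breakdown of IkB proteins, fell from 2.59 to 2.75 FPKM to 1.55 to 1.67 (-0.49 ± 0.09, limma adjusted p = 0.00196). These falls did not pass with total-read scaling (-0.26 and -0.22), which gave 10 higher and 0 lower in the list (median 0.35). With the median of all tested genes moved to 0.25 by that scaling, these counts too are no result about the list.

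**Figure D4:**
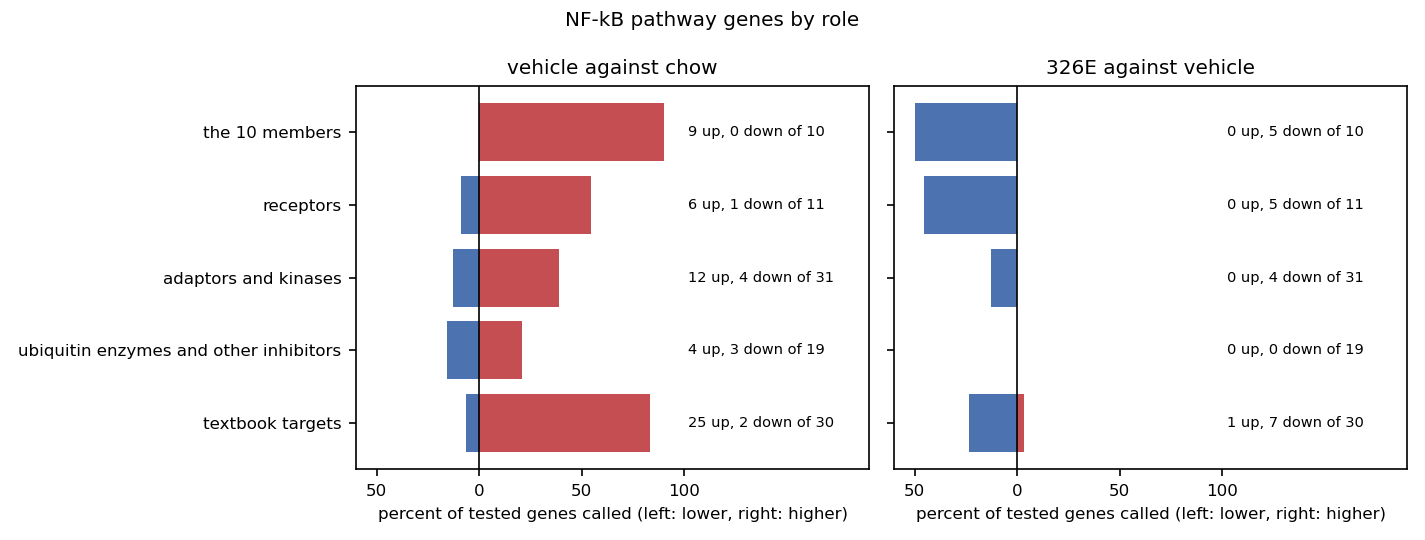
Percent of the tested genes of each role that limma called higher (right) or lower (left), for vehicle against chow and for 326E against vehicle, with the counts beside each bar. The members (9 of 10 higher) and the textbook targets (25 of 30 higher) hold more calls for the diet than the adaptors and kinases (12 of 31), and no ubiquitin enzyme or other inhibitor was called in 326E against vehicle.

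Of 30 textbook NF-kB targets tested, 25 rose and 2 fell in vehicle against chow (median 1.67), and 7 fell and 1 rose in 326E against vehicle (median -0.61). Ier3, an early-response survival gene, followed the uneven members, at 0.754 to 1.09 FPKM in chow, 49.0, 4.96 and 63.5 in the vehicle group and 2.1 to 2.67 in the 326E group. Plau, the urokinase gene, followed the even ones, at 0.522 to 0.982 FPKM in chow, 9.56, 9.52 and 7.8 in the vehicle group and 4.23, 3.55 and 3.49 in the 326E group. Plau was lower in 326E against vehicle by limma at an adjusted p of 0.00233, and Ier3 at 0.0326. Lcn2, an iron-binding acute phase protein, was 1.71, 89.3 and 2.95 FPKM in chow, so that chow replicate 2 was close to the 93.4 of the lowest vehicle library. Sod2, the mitochondrial superoxide dismutase, fell in the vehicle group from 17.6 to 19.4 FPKM to 12.8 to 14.2 (limma adjusted p = 0.00789), a difference of -0.41 that was -0.03 with total-read scaling. Cxcl13, a B cell chemokine, went the other way in both comparisons, at 2.9 to 3.09 FPKM in chow, 0.904, 0.556 and 0.404 in the vehicle group and 2.12, 1.93 and 6.61 in the 326E group (limma adjusted p = 0.00995 and 0.0278).

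The immediate early genes, like the uneven members, were lowest in vehicle replicate 2. Of 18 tested, 16 were called higher in vehicle against chow (20.8% of all tested genes) and 10 lower in 326E against vehicle (6.5%). The list was written after values of these libraries had been seen, so its counts are a description and no support for the members' pattern. Btg2, an antiproliferative early gene, measured 2.92 to 3.94 FPKM in chow, 295.0, 21.5 and 307.0 in the vehicle group and 7.53 to 9.8 in the 326E group. Atf3, a stress-induced transcription factor, measured 0.169 to 0.683, then 136.0, 30.1 and 210.0, then 7.45 to 13.1. Egr1, a zinc-finger transcription factor, measured 23.1, 4.03 and 5.74, then 107.0, 9.3 and 145.0, then 2.74 to 3.38. Egr1 was not called in vehicle against chow (limma adjusted p = 0.0545), and its vehicle replicate 2 was below chow replicate 1.

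The counting places some limits on single members. Nfkb1, Nfkb2 and Bcl3 overlap other annotated genes (Gm43430 for Nfkb1, Psd and AC114539.1 for Nfkb2, and the antisense genes Gm16175 and Gm16174 for Bcl3). The strand setting of the counting is not given in the sources used here, so reads of these pairs may be shared and the 3 values are uncertain. Coordinates of 9 members were the same in GENCODE vM21, and those of Nfkb2 differed.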

How the data were processed

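Poly(A) RNA of 9 mouse liver libraries was measured by RNA-seq. Per the submitters' processing notes, HISAT2 and featureCounts were used on mm10. Versions, annotation release and strand setting are not given in the sources used here. The authors deposited FPKM for 54532 genes with a gene length. FPKM times length gave whole reads within 0.01 in 100% of values. The deposited FPKM imply library sizes of 0.828 to 1.19 of the assigned reads, so scaling between libraries had been done before deposit.

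Genes at 0.5 FPKM or more in at least 3 libraries (13737) entered limma 3.58.1 (R 4.3.3) as log2(FPKM+1), a pseudocount of 1 that understates the change of low genes. The fit had a variance trend, all 9 libraries and 6 residual degrees of freedom. Benjamini-Hochberg adjustment was made within each of 3 comparisons, and calls required an adjusted p under 0.05. The fit was tested on simulated data. Tables and plots were made in Python 3.11.15 with pandas 2.3.3, numpy 2.4.6 and matplotlib 3.10.9.

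The members, gene lists and cell type markers were chosen with earlier results of these data known. Named genes were all members, in each list the called genes that rose most (2) and fell most (2) in the diet and 326E comparisons, and the 3 genes most like each member. The fit was repeated with a pseudocount of 0.1 or 5, without a filter or with a filter on mean FPKM (1), with total-read scaling or quantile normalization, without the variance trend, with array weights, on the compared libraries alone, with limma-voom, with a replicate block, without each library in turn, and with vehicle replicate 2 as the sole vehicle library.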

Additional observations from a re-analysis of the deposited data

How the results depend on the processing

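In vehicle against chow the count of members called stayed within 1.5 times the 9 reported in every alternative run, with 7 to 10 over the fits without single libraries and 7 with vehicle replicate 2 alone. In 326E against vehicle the 5 members called became 3 with no filter, 3 with only the 6 libraries compared, 3 with the replicate block, 8 with array weights, 8 with limma-voom and 1 with vehicle replicate 2 alone, and ranged from 0 to 7 when single libraries were left out. The 17 calls in the pathway lists became 8 with no filter, 30 with array weights, 9 with the replicate block and 2 with vehicle replicate 2 alone, and ranged from 6 to 24. In 326E against chow the 5 members became 3 with no filter and ranged from 3 to 8. Signs turned for genes that were not called. Rela turned in vehicle against chow with vehicle replicate 2 alone (-0.1), and in 326E against vehicle with it (0.23) and without 326E replicate 3 (0.0), where leaving out single libraries gave -0.35 to 0.0. Bcl3 turned in 326E against vehicle without vehicle replicate 1 (0.18), vehicle replicate 3 (0.15) or 326E replicate 2 (0.06), and with vehicle replicate 2 alone (0.74), where leaving out single libraries gave -0.41 to 0.18. Nfkbia turned in 326E against chow with total-read scaling (0.21), with quantile normalization (0.0) and without chow replicate 2 (0.11), where leaving out single libraries gave -0.3 to 0.11. The causes were not tested, apart from the fewer libraries in some fits. Over all genes, 1574 were called in 326E against vehicle, 1030 with no filter, 1037 with the replicate block, 322 with vehicle replicate 2 alone and 659 at the fewest without single libraries. In vehicle against chow 5721 were called, and 3596 with vehicle replicate 2 alone, and in 326E against chow 3688, and 2401 without 326E replicate 2. Replicate numbers did not pair the samples: deviations from group means correlated at -0.244 to 0.024 for same-numbered libraries and at -0.181 to 0.193 for others. Where 1 vehicle library is kept, it is assumed to vary like the other groups. The planned edgeR and DESeq2 fits on recovered reads were not run, because the deposited unit is FPKM.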

Other observations

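Markers of other liver cells, as summed FPKM over replicates, varied between groups beside the members. The 5 stellate cell markers summed to 8.81 to 15.1 in chow, 43.2 to 76.5 in the vehicle group and 33.9 to 40.1 in the 326E group. Of the 5, 4 were called higher in vehicle against chow, and 1 was called lower in 326E against vehicle (median -0.21). Col1a1 alone held 23.1, 44.4 and 32.7 FPKM of the sums in vehicle replicates 1, 2 and 3. In 326E replicates 1, 2 and 3 it held 17.8, 13.1 and 14.5. The 6 Kupffer cell markers were 281 to 315, 255 to 312 and 276 to 365. Their sum hides opposed changes, since 2 were called higher and 2 lower in vehicle against chow. Timd4 (-1.51, limma adjusted p = 0.00186) and C6 (-0.83, limma adjusted p = 0.00489) were lower in vehicle than in chow. Marco (1.1, limma adjusted p = 0.0245) and Cd5l (0.94, limma adjusted p = 0.00588) were higher. In 326E against vehicle 1 of the 6 was called, Timd4, which was higher (1.27, limma adjusted p = 0.0183). The 5 endothelial markers were 42.4 to 50.4, 37.5 to 49.4 and 49.4 to 57.0, with 1 called higher and 1 lower in vehicle against chow. The 4 cholangiocyte markers were 2.19 to 8.9, 9.17 to 31.0 and 5.09 to 15.1. The 6 T and NK cell markers were 1.46 to 2.04, 3.24 to 7.14 and 1.92 to 7.97, and the 5 B and plasma cell markers 2.7 to 4.01, 7.43 to 10.8 and 6.22 to 10.6. Chow replicate 2 held the highest chow values of Nfkbia (38.4 FPKM), Lcn2 (89.3), Irak3 (1.7) and the neutrophil marker sum (22.9), while its Tnfaip3 (0.844) and Nfkbiz (2.06) were near those of the other chow libraries.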
